A study of Monodelphis domestica with 9 samples.

Results

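The genes described here mark endothelial cells, the lining of blood vessels. They were chosen by name, as genes known from endothelial cells, and not by a limit on a measured value, though earlier results of these data were known. The 10 genes are PECAM1, CDH5, EMCN, VWF, KDR, FLT1, TIE1, TEK, ENG and COL4A1, and all 10 were found among the 22725 genes of the table. The tissue came from the grey, short-tailed opossum Monodelphis domestica, a marsupial in which Meckel's cartilage (MC) breaks down after birth and frees the malleus from the jaw. The region where MC meets the malleus was cut out by laser microdissection, with little of the perichondrium around it. The animals were untreated pups at postnatal day (P) 16, 18 or 20, with 3 animals at each stage and no other difference in genotype or treatment in the labels. Before sequencing, the little RNA captured had to be amplified as cDNA.

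Expression was given as FPKM (fragments mapped to a transcript, scaled for its length and for all mapped fragments), as 1 mean for each condition. Values of single animals were not analysed here. The depth of the libraries and the variation among animals are therefore unknown, no mean carries an error, and no difference was tested here. The conditions are coded q1, q2 and q3. Nothing in the labels or the paper says which code is P16, which P18 and which P20, and the codes are used as they stand. Values were listed per TSS group, a term for those transcripts of 1 gene that begin at the same start site, and were summed over the TSS groups of each gene. Values of q3 were used for 28026 of 37421 TSS groups (74.9%). These cover 8 of the 10 genes, and ENG and VWF in q3 were not analysed here.

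Cartilage has no vessels of its own, while perichondrium, bone and bone marrow do. Vessels enter cartilage when it turns hypertrophic, mineralizes and is resorbed. Endothelial cells hold together through VE-cadherin (CDH5) and PECAM1, respond to VEGF through the receptors KDR and FLT1, and respond to angiopoietins through TEK, to which TIE1 is a partner. In whole tissue, a change in the number of endothelial cells and a change in the RNA of each cell cannot be told apart.

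Most genes had larger FPKM in the later codes, so a ratio was read against the median of all tested TSS groups with both values above 0. Tested here means that the table marks the TSS group as having enough reads for a comparison. From q1 to q2 this median log2 ratio was 0.68 over 14291 TSS groups, from q1 to q3 it was 2.08 over 13424, and from q2 to q3 it was 1.36 over 13986. In fold terms these are 1.61, 4.23 and 2.57. Summed genes lay close to it, with a median of -0.04, -0.09 and -0.03 relative to it over 10165, 9003 and 9218 genes. The FPKM of all 28026 TSS groups with a q3 value summed to 122806, 448454 and 811186 in q1, q2 and q3. This sum differed more than the median between q1 and q2, by 1.87 on the log2 scale, and less between q2 and q3, by 0.86. The defining collagen of cartilage, COL2A1, was listed at 0 in q1 and q2, but so was COL1A2 of bone, and other cartilage genes were abundant. COL9A2, a chain of cartilage collagen IX, had a summed FPKM of 363, 120 and 373 in q1, q2 and q3.

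The junction and surface genes were present at low to moderate levels in every condition analysed. PECAM1, a junction protein of endothelial cells that leucocytes and platelets also carry, lies on chromosome 2 from 230065492 to 230169548, in the coordinates of the deposited table, whose build is not stated. Its summed FPKM was 4.17, 6.30 and 21.1 in q1, q2 and q3, the order kept below wherever a gene is given with 3 values. CDH5, the cadherin of endothelial junctions, lies on chromosome 1 from 682733480 to 682786751. Its summed FPKM was 3.00, 5.11 and 14.3. Both genes thus had their highest mean in q3, 5.05 and 4.77 times that in q1. EMCN encodes endomucin, a sialomucin of capillary and venous endothelium (chromosome 5 from 50253294 to 50405681), and its FPKM was 1.70, 5.46 and 11.0. Of these genes it had the largest ratio of q2 to q1, 3.21. VWF encodes von Willebrand factor, which binds platelets and is stored in endothelial cells and platelets. It had the lowest FPKM of the 10 genes, 0.553 in q1 and 0.424 in q2, and its only TSS group was not tested. VWF is listed within a locus of 804734 bases on chromosome 8, from 106615955 to 107420688, which it shares with ANO2.

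The VEGF receptors were expressed at similar levels to each other. KDR (VEGFR2), the main signalling receptor for VEGF-A, lies on chromosome 5 from 170630457 to 170681684 and had a summed FPKM of 2.64, 3.91 and 8.47. FLT1 (VEGFR1), which binds VEGF-A and PGF and in a soluble form traps them, lies on chromosome 4 from 298924484 to 299127630 and had 1.68, 3.53 and 6.74. The mean of KDR was the larger in each condition. The ratio of KDR to FLT1 was 1.57, 1.11 and 1.26, and since both values of such a ratio come from 1 condition, the scaling between conditions does not enter it. From q1 to q3 KDR had the smallest ratio of the 8 genes, 3.21.

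The angiopoietin receptors had the largest ratios from q2 to q3. TIE1, a receptor-like kinase that modulates TEK, lies on chromosome 2 from 11010954 to 11037897, and its FPKM was 0.598, 1.63 and 10.3. In q1 89.1% of genes with any tested TSS group had a larger value than TIE1, and in q3 38.1% did. TEK (TIE2), the receptor of ANGPT1 and ANGPT2, lies on chromosome 6 from 43858371 to 43985014, with a summed FPKM of 1.33, 1.59 and 9.68. Its mean hardly differed between q1 and q2 and was 6.09 times as large in q3 as in q2. For TIE1 that ratio was 6.32. The ratio of TEK to TIE1 within a condition was 2.22, 0.975 and 0.939. TIE1 thus stood lower than TEK in q1 and level with it in the other conditions, from values of which the one in q1 is among the lowest of the 10 genes.

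ENG and COL4A1 are less particular to endothelial cells. ENG encodes endoglin, a coreceptor for BMP9 and TGF-β that macrophages and stromal cells can also express. It lies on chromosome 1 in a locus shared with FPGS, from 453462914 to 453526803, and its FPKM was 5.82 in q1 and 7.82 in q2. COL4A1, a collagen IV chain of all basement membranes, was the most abundant of the 10 genes. Its summed FPKM was 13.8, 24.5 and 104 in q1, q2 and q3. In q3 only 5.54% of genes with any tested TSS group had a larger value. COL4A1 is listed on chromosome 7 from 82134532 to 82622279, together with its neighbour COL4A2, whose summed FPKM was 23.0, 30.9 and 144. The ratio of COL4A1 to COL4A2 was 0.599, 0.793 and 0.722. The plot of levels by condition shows all 10 genes on 1 scale.

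**Figure D1:**
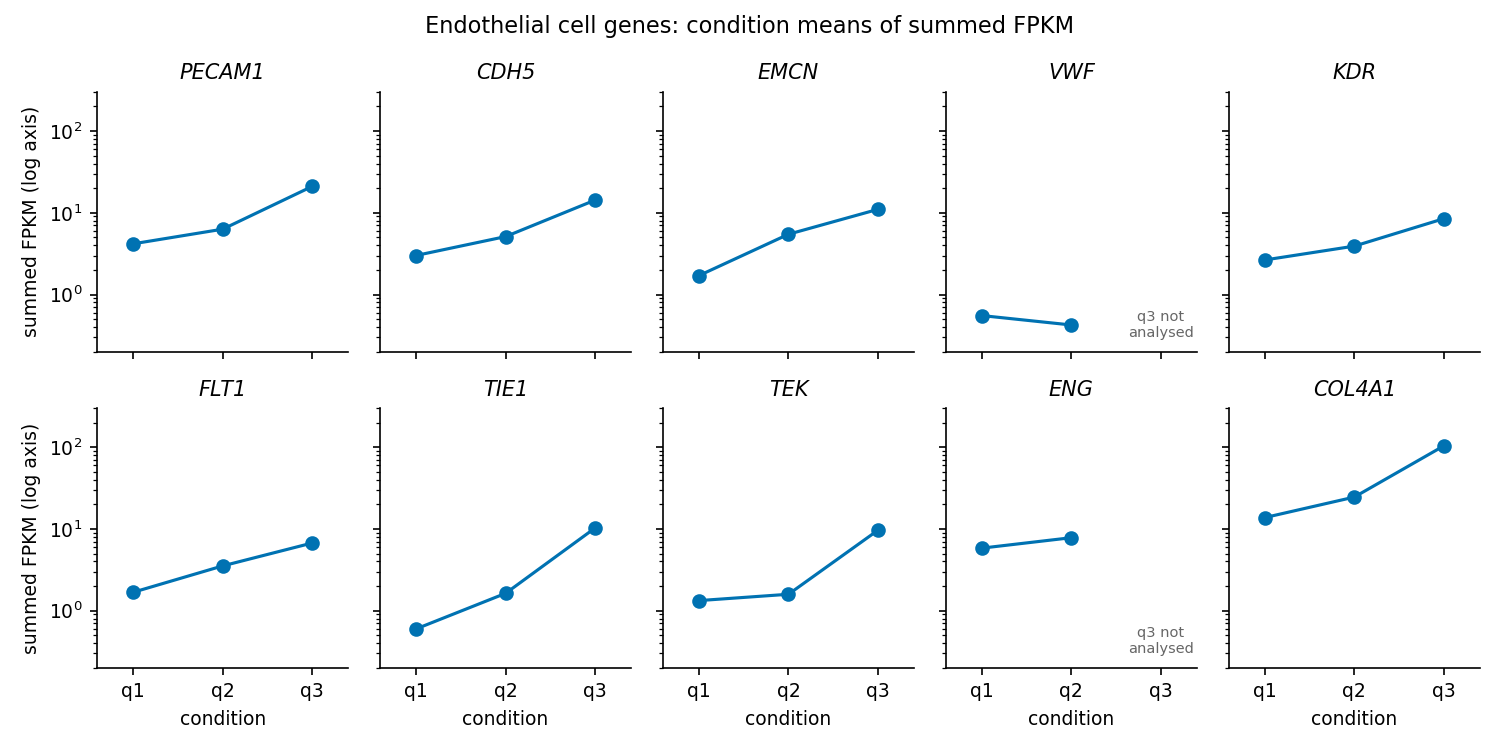
Summed FPKM (log axis) of each endothelial cell gene in the conditions q1, q2 and q3; each point is the authors' condition mean, with no error available. All 8 genes with a q3 value are highest in q3, from 6.74 for FLT1 to 104 for COL4A1, and VWF is lowest in q1 and q2.

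Against the median of tested TSS groups, the endothelial cell genes stayed near the shift of all genes. From q1 to q2 the 10 genes had a median log2 ratio of 0.68, which is 0.00 relative to the median, and 5 lay above it. Over the 9 genes with a tested TSS group, which leaves out VWF, it was 0.09 relative to the median, with 0 of 9 at least 2-fold below. The lowest was VWF at -1.07 and the highest were EMCN at 0.999, just short of 2-fold, and TIE1 at 0.76. At least 2-fold above the median were 0 of 10 genes, where 8.83% of all measured genes were. At least 2-fold below it was 1 of 10, the untested VWF, where 14.5% of all measured genes were. Both are counts of few genes. Scaled by total FPKM instead, the median of the 10 genes was -1.19 and 7 of 10 lay at least 2-fold below. This scaling subtracts 1.87 in place of 0.68 from every gene, so all genes moved down alike. The share of all measured genes at least 2-fold below was not computed with it. Total FPKM here and below is the sum over the TSS groups with a q3 value.

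From q1 to q3 the 8 genes had a median log2 ratio of 2.52, or 0.44 relative to tested TSS groups, and 6 of 8 lay above their median. Scaled by total FPKM instead, the same median was -0.21, so its side depends on the scaling. That scaling subtracts 2.72 in place of 2.08 from every gene, so the place of the 8 genes among all genes stays the same. TIE1 stood highest at 2.03 above, and 3.71% of measured genes had a larger ratio. It was followed by COL4A1 at 0.84, TEK at 0.79, EMCN at 0.62, PECAM1 at 0.26 and CDH5 at 0.17. FLT1 at -0.08 and KDR at -0.40 lay below. At least 2-fold above the median was 1 of 8 genes, TIE1, against 12.8% of all measured genes. At least 2-fold below were 0 of 8, against 21.7%. Over 9 settings of scaling, summing and pseudocount TIE1 stayed between 1.38 and 2.12. TEK stayed above 0, from 0.14 to 1.27, and so did COL4A1, from 0.19 to 1.42, while EMCN, PECAM1, CDH5, FLT1 and KDR took both signs.

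From q2 to q3 the median of the 8 genes was 0.25 relative to that of tested TSS groups, with 5 of 8 above it. Without COL4A1 and PECAM1, which other cell types also express well, the median was -0.06, with 3 of 6 above. Scaled by total FPKM, which subtracts 0.86 in place of 1.36 from every gene, the median of the 8 genes was 0.76. TIE1 at 1.30 and TEK at 1.25 stood highest, and the other 6 genes lay between -0.43 (FLT1) and 0.72 (COL4A1). The place of TEK depended on the processing. With only the highest TSS group of each gene TEK was at 0.89, short of 2-fold, and COL4A1 at 0.90, and with a pseudocount of 1 they were at 1.05 and 1.04. These 2 receptors are the genes at least 2-fold above the median, 2 of 8 against 9.73% of all measured genes. At least 2-fold below it were 0 of 8, against 15.9%. Of the measured genes 6.30% had a larger ratio than TIE1 and 6.88% a larger one than TEK. The plot of relative ratios sets each gene against the spread of all genes. The 3 comparisons share conditions, so their values are not independent of each other.

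**Figure D2:**
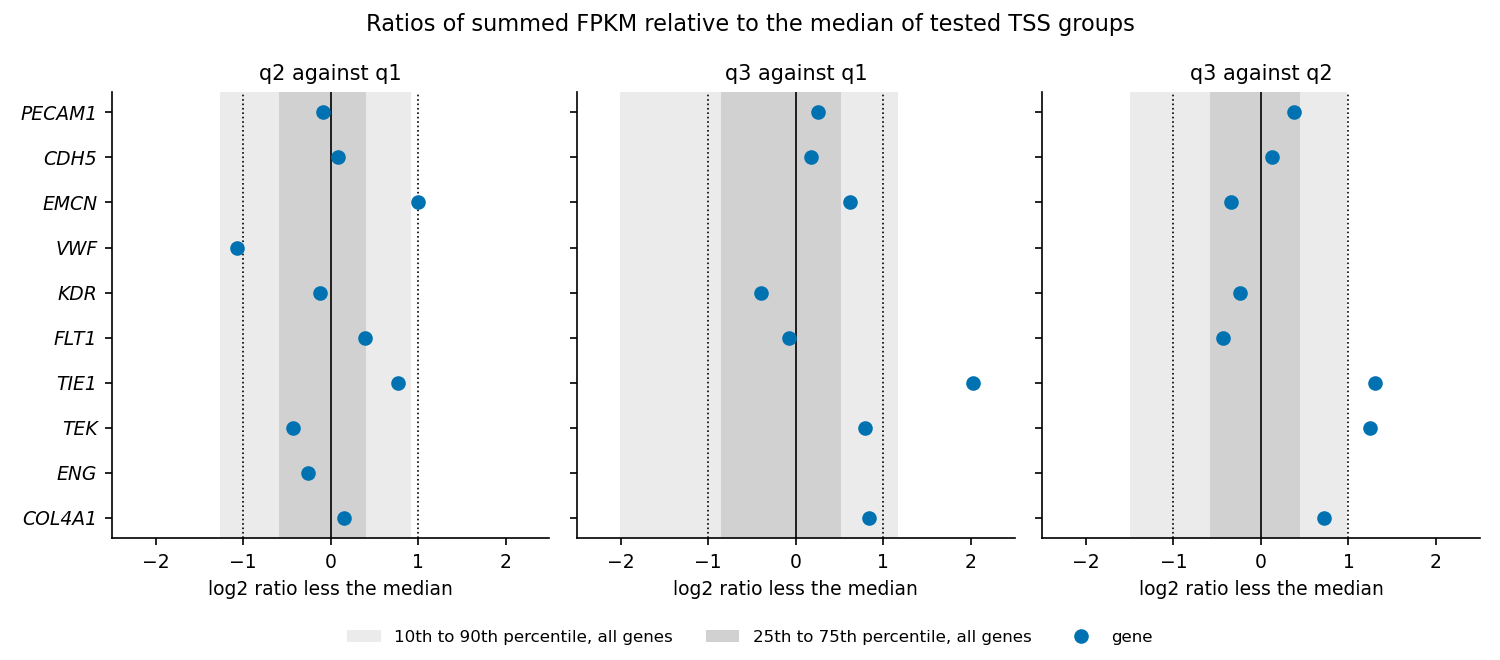
Log2 ratio of summed FPKM less the median of tested TSS groups (x axis), for each endothelial cell gene in the 3 comparisons; grey bands span the 25th to 75th and 10th to 90th percentiles of all measured genes and dotted lines mark 2-fold. Beyond the lighter band, which ends at the 90th percentile, lie EMCN from q1 to q2 (0.999), TIE1 from q1 to q3 (2.03) and TIE1 and TEK from q2 to q3 (1.30 and 1.25), while VWF and ENG have no value in q3.

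As a share of the FPKM of the 28026 TSS groups with a q3 value, the 8 genes together made up 235, 116 and 229 of each 1000000 in q1, q2 and q3. Without COL4A1 the 7 others made up 123, 61.4 and 101. On this scale q2 was thus the lowest condition, whereas the summed FPKM of the 8 genes was ordered 28.9, 52.1 and 185. The median tested TSS group also had a lower share in q2 than in q1. Its log2 ratio of 0.68 lay below the 1.87 of total FPKM. Measured against CDH5, a gene largely limited to endothelium, TIE1 had 0.199, 0.319 and 0.721 of its level in q1, q2 and q3, and TEK 0.443, 0.311 and 0.677. KDR had 0.881, 0.764 and 0.592 of the level of CDH5, in the opposite order to TIE1. PECAM1 kept 1.39, 1.23 and 1.47 times the level of CDH5, FLT1 0.560, 0.691 and 0.471, and EMCN 0.567, 1.07 and 0.771. COL4A1 had 4.59, 4.80 and 7.27 times its level. These ratios are of condition means and carry no error.

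Of the 10 genes, 6 have more than 1 TSS group, and their start sites did not differ alike between conditions. The first start site of CDH5, TSS4093, had an FPKM of 0.351, 2.73 and 7.98, and the other, TSS4094, 2.65, 2.38 and 6.32. TSS4093 thus held 11.7%, 53.5% and 55.8% of the gene. In KDR, TSS373172 had 0.361, 1.89 and 7.17, while TSS373173 had 2.28, 2.02 and 1.31. The share of TSS373172 was 13.7%, 48.4% and 84.6%, so the summed values of KDR hide a start site that was higher and one that was lower in each later code. In PECAM1, TSS125858 had 2.72, 5.63 and 20.3 and TSS125857 had 1.45, 0.671 and 0.748, which left the latter with 34.8%, 10.6% and 3.55% of the gene.

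FLT1 had one start site with nearly the same FPKM throughout. This was TSS303838, with 0.934, 1.17 and 1.10, or 55.6%, 33.2% and 16.3% of the gene. TSS303841 had 0.727, 1.76 and 3.70, and TSS303839 had 0.018, 0.582 and 1.93. Which of these makes the soluble form is not given in the table. In TEK, TSS427499 had 0.673, 0.189 and 3.01 and TSS427500 had 0.655, 1.40 and 6.67. In COL4A1, TSS474715 had 0.414, 6.77 and 15.7, or 3.01%, 27.6% and 15.2% of the gene, and TSS474713 led in every condition with 53.4%, 52.2% and 58.9%.

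The TSS group with the largest FPKM differed between q1 and q3 in 4 of these 6 genes, CDH5, KDR, FLT1 and TEK. The same held for 32.2% of the 3247 genes with at least 2 tested TSS groups. In TEK both start sites were nearly level in q1. TSS groups that differed in opposite directions between q1 and q3 were found in 2 of 6, KDR and PECAM1, against 17.5% of these genes. Between q1 and q2 there were 4 of 5, CDH5, KDR, PECAM1 and COL4A1, against 36.2% of 3282 genes, and the leading TSS group differed in 2 of 5, CDH5 and FLT1, against 29.1%. How Cufflinks divided reads among overlapping transcripts was not tested, and start sites were examined after these values had been seen.

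**Figure D3:**
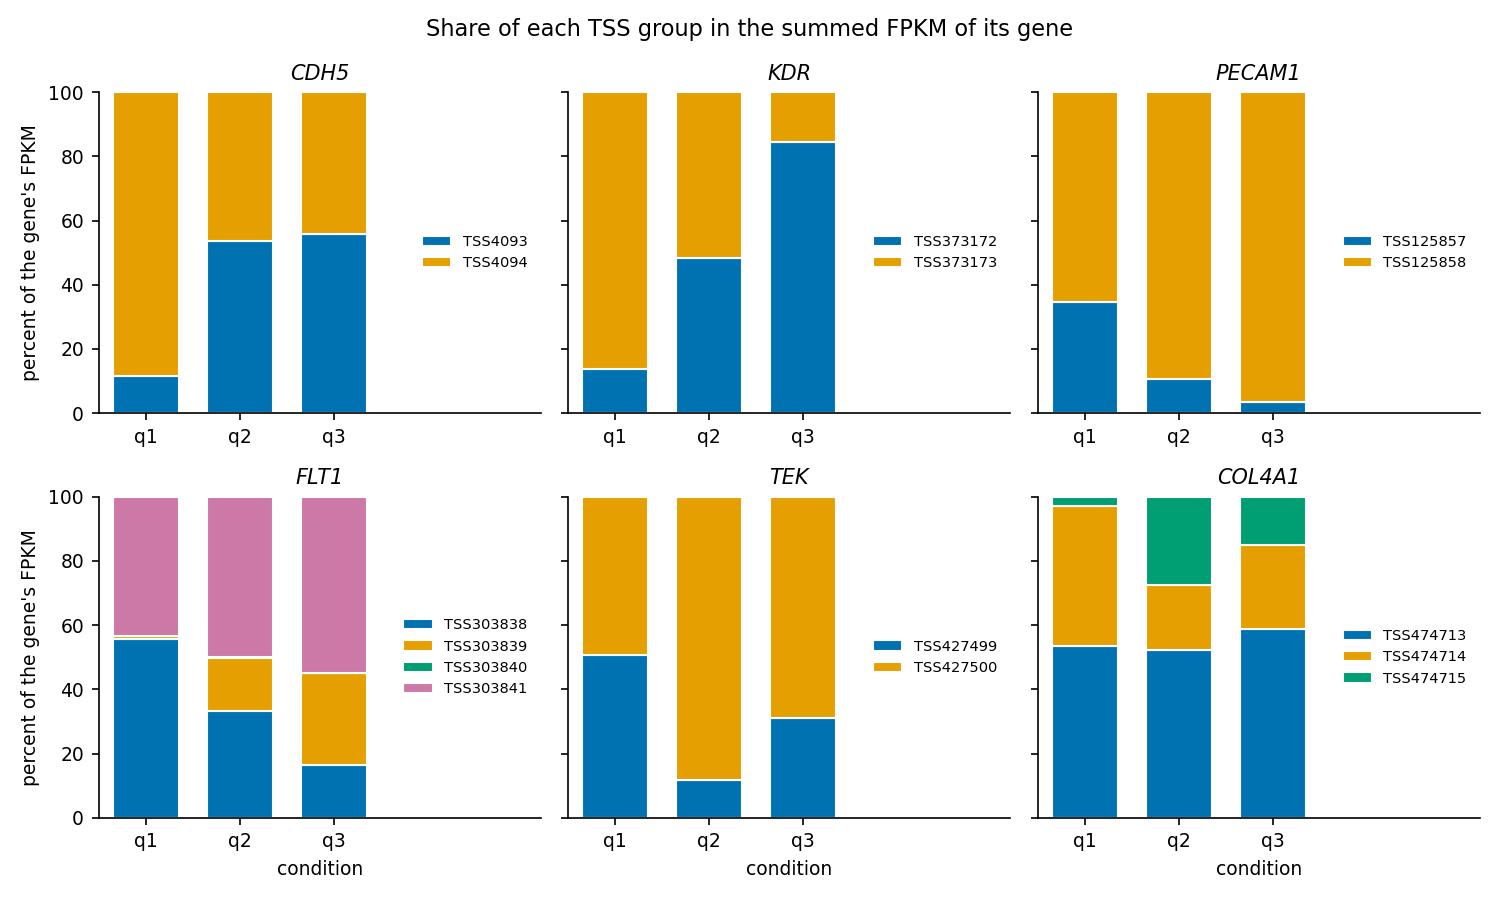
Stacked bars of the percent of each gene's summed FPKM from each TSS group in q1, q2 and q3, for the 6 genes with more than 1 TSS group. The blue share grows from 13.7% to 84.6% in KDR and from 11.7% to 55.8% in CDH5, and shrinks from 34.8% to 3.55% in PECAM1.

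Among the ligands of these receptors PGF was the most abundant. PGF, placental growth factor, which binds FLT1, had a summed FPKM of 24.9, 57.1 and 170. VEGFA, the main angiogenic ligand, had 2.11, 4.37 and 7.67, and VEGFB was listed at 0 in q1 and q2. The level of PGF was thus 11.8, 13.1 and 22.2 times that of VEGFA. ANGPT1, the activating ligand of TEK, had 1.03, 2.11 and 11.8. It lay 0.35 above the median in q2 against q1, 1.44 above it in q3 against q1 and 1.12 above it in q3 against q2. ANGPT2, which can oppose ANGPT1, had 0.631 in q1 and 3.41 in q2, 1.75 above the median. In each comparison 4 ligands were measured, with VEGFC in the place of ANGPT2 where q3 enters. At least 2-fold above the median was 1 of 4 each time, ANGPT2 from q1 to q2 and ANGPT1 in the others, against 8.83%, 12.8% and 9.73% of all measured genes. At least 2-fold below were 0 of 4, against 14.5%, 21.7% and 15.9%. Of the other receptors and coreceptors, the neuropilin NRP2 (6.90, 8.70 and 29.1) and BMPR2 (4.11, 6.32 and 18.5) lay within 0.35 of the median from q1 to q2 and within 0.09 from q1 to q3. NRP1, a coreceptor for VEGF, had 1.97 in q1 and 3.26 in q2. PTPRB, a phosphatase that acts on TEK, had 1.71 and 0.877, and its TSS groups were not tested.

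Other genes known from endothelial cells gave a similar picture. Of 30 such genes 23 were in the table, 11 were measured from q1 to q2 and 14 from q1 to q3. Their median was 0.12 and 0.30 relative to that of tested TSS groups. At least 2-fold above it from q1 to q2 were 2 of 11, CD34 and PROCR, against 8.83% of all measured genes. From q1 to q3 these were 3 of 14, CD34, ROBO4 and TM4SF18, against 12.8%, while 1 of 14, SELP, was at least 2-fold below, against 21.7%. From q2 to q3 the median was 0.16 over 15 genes. In that comparison 1 of 15, ESAM, was at least 2-fold above, against 9.73%, and 1 of 15, PROCR, at least 2-fold below, against 15.9%. PROCR had 0.239, 1.72 and 1.11, so its side depended on the conditions compared. The genes measured differ between comparisons, here and in the lists that follow, and some of them, such as ROBO4 with 0.181, 0.939 and 4.29, had a tested TSS group only where q3 enters. ESAM, an adhesion molecule of endothelial junctions, had a summed FPKM of 8.81, 9.26 and 66.4, so it differed mainly between q2 and q3. S1PR1, the receptor for sphingosine-1-phosphate, had 5.09, 10.4 and 22.1, RAMP2, a partner of the adrenomedullin receptor, 3.17, 5.51 and 16.2, and TM4SF18 2.91, 8.51 and 35.4.

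Of 18 transcription factors of endothelial cells 14 were in the table. The median of the 10 measured from q1 to q2 was -0.07, that of the 9 measured from q1 to q3 was 0.32, and that of the 9 measured from q2 to q3 was 0.49. KLF2, which responds to flow, had a summed FPKM of 28.2, 36.1 and 124, and MEF2C had 14.8, 26.0 and 78.1. Both are expressed in other cells too. The ETS factors ETS1 (3.98, 7.93 and 22.5) and FLI1 (4.84, 6.49 and 23.3) lay 0.42 and 0.19 above the median from q1 to q3. ERG, another ETS factor, had 2.07, 1.71 and 6.47 and lay 0.43 below it. From q1 to q2, 1 of 10 was at least 2-fold above, KLF4 (8.83% of all measured genes), and 1 below, LYL1 (14.5%). From q1 to q3, 1 of 9 was above, TAL1 (12.8%), and 0 below (21.7%). From q2 to q3, 1 of 9 was above, TAL1 (9.73%), and 1 below, KLF4 (15.9%). TAL1 had 0.157, 0.382 and 4.90.

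The Notch genes of vessels were divided. Their median was 0.68 over 7 genes from q1 to q2, -0.18 over 8 from q1 to q3 and 0.06 over 8 from q2 to q3. From q1 to q3, HEY1 and HEYL, targets of Notch signalling, were at least 2-fold above the median, 2 of 8 against 12.8% of all measured genes, and 1 of 8 was below, against 21.7%. The latter was DLL4, the Notch ligand of sprouting tip cells, whose FPKM was 1.03, 0.132 and 1.499. From q2 to q3 DLL4 was at least 2-fold above the median, at 2.14, so its side depended on the conditions compared. That ratio rests on its low value of 0.132 in q2, and DLL4 was not tested from q1 to q2. With NOTCH4, 2 of 8 were above from q2 to q3, against 9.73%, and 2 of 8 below, DLL1 and HEY2, against 15.9%. From q1 to q2, 2 of 7 were above, HEY1 and HEYL, against 8.83%, and 1 of 7 below, JAG2, against 14.5%. HEY1 had an FPKM of 1.73, 7.23 and 23.0 in q1, q2 and q3, NOTCH1 3.49, 3.66 and 9.48, and HEY2 1.22, 3.13 and 2.93. JAG2 had 2.88 in q1 and 1.40 in q2. HEY1 and HEY2 are expressed in cartilage and bone as well.

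Genes of the basement membrane and of mural cells, the pericytes and smooth muscle around vessels, had medians near those of the endothelial cell genes. The exception was the basement membrane from q2 to q3, at 0.64 beside 0.25 for the endothelial cell genes. For the basement membrane the median was -0.03 over 11 genes from q1 to q2, 0.58 over 9 genes from q1 to q3 and 0.64 over 9 from q2 to q3, when all 9 lay above the median of tested TSS groups. COL4A1 is among them. HSPG2, perlecan, which cartilage also makes, had 23.7, 25.6 and 92.9, and SPARC, which is abundant in bone, had 1398 in q1 and 5286 in q2. From q1 to q2, 1 of 11 was at least 2-fold above the median, SPARC, against 8.83%, and 1 of 11 below, COL15A1, against 14.5%. From q1 to q3, 1 of 9 was above, LAMB2, against 12.8%, and 0 of 9 below, against 21.7%. From q2 to q3, 0 of 9 were above, against 9.73%, and 0 of 9 below, against 15.9%. For mural cells the median was 0.11 over 10 genes, 0.42 over 7 and 0.26 over 7 in the same comparisons. TAGLN, an actin-binding protein of smooth muscle, had 4.61, 20.2 and 57.6 and was 1.56 above the median from q1 to q3. ACTA2, smooth muscle actin, was the other gene of the list at least 2-fold above it there, 2 of 7 against 12.8% of all measured genes. At least 2-fold below were 0 of 7, against 21.7%, with MYH11 at -0.79 and DES at -0.22. From q1 to q2, 1 of 10, TAGLN, was at least 2-fold above the median, against 8.83%. In that comparison 1 of 10, PDGFB, was at least 2-fold below, against 14.5%. MCAM had 3.65, 7.03 and 20.7, CSPG4 4.72, 4.32 and 20.1, and ANPEP 2.93 in q1 and 7.47 in q2.

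Genes of other cell types in the captured tissue differed beside the endothelial cell genes, and their part in these values was not tested. Genes of clasts, which resorb bone and mineralized cartilage, had a median of 1.20 between q1 and q2 and of 1.52 between q1 and q3, over 11 genes each and relative to tested TSS groups. Their summed FPKM over 11 of 14 genes was 1260, 4341 and 20382 in q1, q2 and q3, and CALCR and TCIRG1 were listed at 0. CTSK had 671, 2935 and 12823, ACP5 368, 942 and 4403, and MMP9 194, 358 and 2813. For bone matrix the medians were 1.11 over 9 genes and 1.08 over 8, with a summed FPKM of 1632, 6385 and 13662 over 8 of 11 genes. BGLAP had 441, 2531 and 3980, and COL1A1 633, 1558 and 3422. For cartilage they were -1.91 over 11 genes and -2.04 over 9, with a summed FPKM of 850, 452 and 1234 over 9 of 14 genes. COL9A3 had 217 in q1 and 66.5 in q2, and COL11A2 126, 134 and 383.

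Blood cells were checked because leucocytes and platelets carry PECAM1, platelets VWF and macrophages ENG. The summed FPKM of 5 of 12 myeloid genes was 20.1, 49.3 and 128, and the median was 0.94 over 7 genes from q1 to q2 and 0.85 over 4 from q1 to q3. TYROBP, an adaptor of myeloid receptors, had 13.2, 26.9 and 69.4, CSF1R 3.97 in q1 and 19.1 in q2, and FCER1G 3.28, 12.9 and 20.0. From q1 to q2, 3 of 7 were at least 2-fold above, CSF1R, FCER1G and MRC1, against 8.83% of all measured genes. CD14, with 5.17 in q1 and 2.87 in q2, was below, 1 of 7 against 14.5%. From q1 to q3, 2 of 4 were above, LAPTM5 and PTPRC, against 12.8%, and 0 of 4 below, against 21.7%. Of 9 platelet genes 2 were in the table, ITGA2B and GP9, with summed values of 1.98, 0.482 and 0.759, and GP9 was listed at 0 in q2. The erythroid genes were low, but their median was 1.08 over 3 genes from q1 to q2 and 1.76 over 4 from q1 to q3. At least 2-fold above from q1 to q2 were ALAS2 and EPB42, 2 of 3 against 8.83% of all measured genes. From q1 to q3 these were HBA and KLF1, 2 of 4 against 12.8%. In both comparisons 0 were 2-fold below, against 14.5% and 21.7%. HBA had 0.149, 0.0937 and 4.10 and KLF1 0.0255, 0.162 and 4.11, with q1 and q2 near 0. Only AHSP was measured both from q1 to q2 (0.99) and from q1 to q3 (0.83). The summed FPKM over 4 of 14 erythroid genes was 2.72, 8.21 and 26.9, with AHSP at 2.14, 6.82 and 16.0. EPB42 had 0.462 in q1 and 1.57 in q2, and ALAS2, the enzyme of haem synthesis in red cell precursors, 0.728 and 11.0.

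Muscle and nerve genes were low beside those of bone. Their medians were 0.71 and -0.22 for muscle, over 3 genes each, and -0.47 over 4 and -0.80 over 3 for nerve, in the order of the comparisons above. The summed FPKM was 5.42, 12.1 and 30.0 over 5 of 11 muscle genes, with CKM listed at 0 in q1 and q2. It was 20.3, 29.7 and 63.6 over 5 of 10 genes of Schwann cells and neurons, with SOX10 listed at 0, and PMP22, which many cells express, made up most of it with 12.5, 21.2 and 55.0. MYL1 had 3.83, 10.1 and 24.4, TNNC2 1.59 in q1 and 4.17 in q2, ACTA1 1.12, 0.995 and 2.64, TUBB3 4.04, 3.89 and 0.065, and SNAP25 3.83 in q1 and 4.68 in q2. The plot of gene lists shows the medians of the vessel lists beside those of blood, bone and cartilage.

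**Figure D4:**
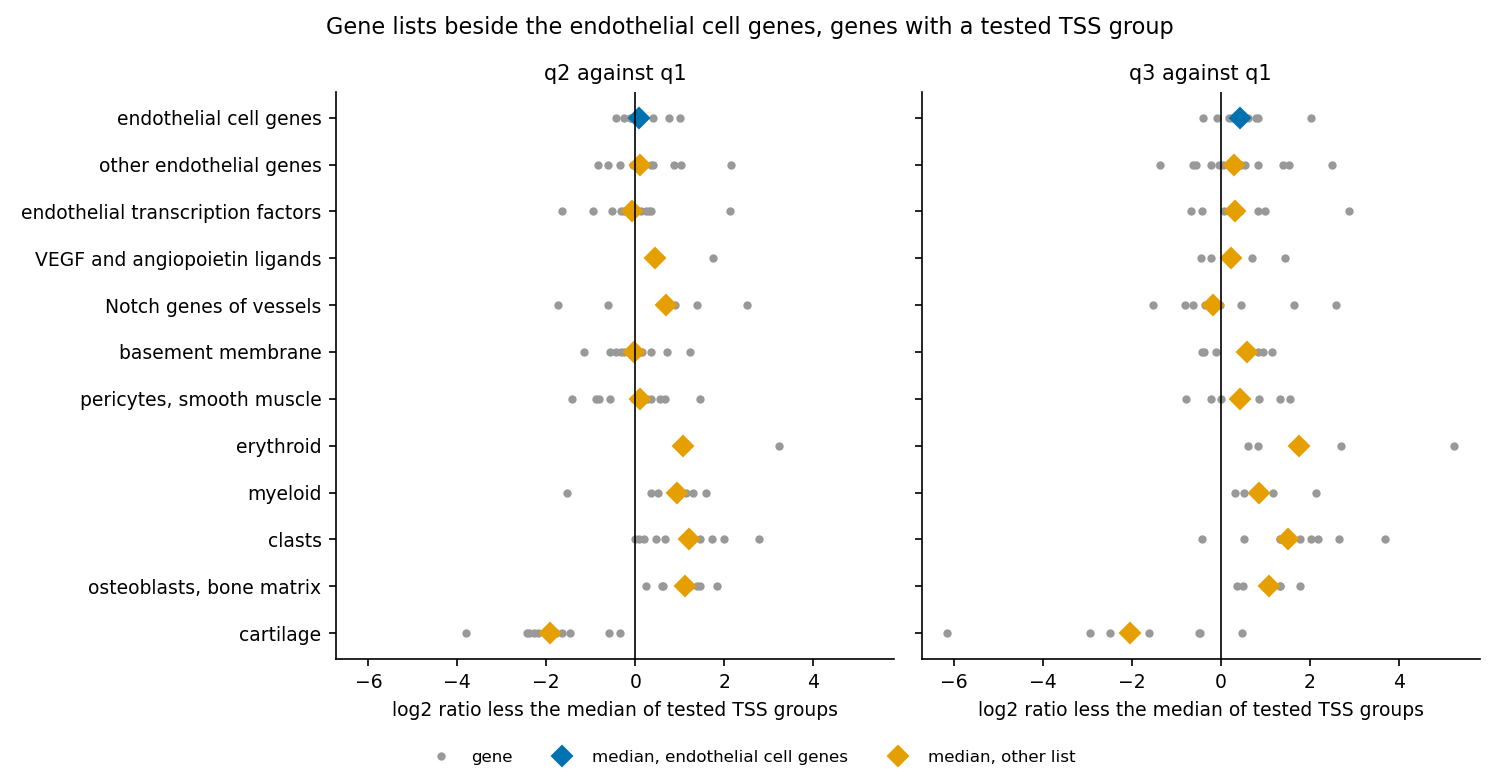
Log2 ratio less the median of tested TSS groups (x axis) for genes with a tested TSS group, by gene list; grey points are genes and diamonds are list medians. From q1 to q3 the endothelial cell genes have a median of 0.44, above cartilage at -2.04 and below clasts at 1.52. The erythroid median of 1.76 is over 4 genes, of which only AHSP, at 0.83, was also measured from q1 to q2. From q1 to q2 the median of the endothelial cell genes is 0.09, over the 9 with a tested TSS group, which leaves out VWF.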

How the data were processed

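RNA-seq covered 9 libraries from 3 animals per stage. TopHat, Cufflinks and Cuffdiff are listed in the submitters' processing notes. Their versions, the genome build, the annotation and the scaling were not given there. The authors deposited 1 table with the mean FPKM of each condition per TSS group. Its columns of fold changes, test statistics, p-values, q-values and calls hold the authors' own comparisons and were not used, nor was a shorter sheet of called rows. The copy used here ends after 65535 rows, within the q3 tests, at TSS5013.

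The genes and lists were chosen with earlier results of these data known. FPKM was summed over the TSS groups of a gene where all were listed. Log2 ratios had no pseudocount, and the median log2 ratio of all tested TSS groups with both values above 0 was subtracted. For q3 against q2 a TSS group counted as tested if it was tested against q1 in either condition. A measured gene has at least 1 tested TSS group and both sums above 0. A ratio at least 1 (2-fold) from the median was counted, as a description without a test. The text names all 10 endothelial cell genes and, from each other list, the 4 (vessels) or 3 (other cells) genes with the highest mean of q1 and q2, besides genes counted past 2-fold. Some genes listed at 0 and some that lay below the median are named as well. Alternatives changed the median, the TSS groups summed, the pseudocount (0.1 or 1), the fold limit and the genes included. The computation was tested on simulated data. Python 3.11.15, numpy 2.4.6, pandas 2.3.3 and matplotlib 3.10.9 were used.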

Additional observations from a re-analysis of the deposited data

How the results depend on the processing

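Values are condition means without a spread between animals, so no replicate could be left out. No paired analysis was possible because the table holds no value of a single animal. With total FPKM in place of the median, the median of the endothelial cell genes was -1.19 for q2 against q1, with 7 of 10 genes at least 2-fold below, and -0.21 for q3 against q1, with 1 of 8 below. Within a comparison this scaling moves every gene by the same amount, so the order of all genes is kept. Other medians of TSS groups or genes put 1 gene (EMCN) at least 2-fold above from q1 to q2 in place of 0. VWF no longer counted as 2-fold below (0 in place of 1) with only tested TSS groups, with either pseudocount, or without genes of low FPKM or without a tested TSS group, the last chosen after seeing the data. From q1 to q3 the genes at least 2-fold above numbered 3 with only the highest TSS group, 2 with a pseudocount of 1 and, after seeing the data, 0 without TIE1. From q2 to q3 they numbered 1 with only the highest TSS group (TEK no longer counted), 1 without TIE1, and 3 with total FPKM, a pseudocount of 1 or the lower limit. With only the highest TSS group KDR was at 2.23 from q1 to q3. A limit of 0.58 (1.5-fold) gave 2 of 10 above from q1 to q2, where 18.3% of measured genes passed, and 4 of 8 from q1 to q3, where 22.9% did. From q2 to q3 it gave 3 of 8, where 20.1% did. Shares of all measured genes were computed only with the main scaling, summing and pseudocount, so the other counts have none beside them. Over all settings the median ranged from -1.19 to 0.24 (q2 against q1), -0.21 to 0.90 (q3 against q1) and -0.06 to 0.76 (q3 against q2). The value of -0.06 was that without COL4A1, PECAM1 and ENG.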
